A study of Homo sapiens with 11 samples.

Results

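The genes described here are 10 members of the G alpha q signalling pathway that drives uveal melanoma: CYSLTR2, GNAQ, GNA11, PLCB4, PRKCD, PRKCE, RASGRP3, TRIO, ARF6 and PTK2. They were taken from a list of names without a rule on measured values, but with earlier results of these data known. They are 10 of the 20033 protein-coding genes of the annotation. Each gene was studied over its body with 50 kb on either side, called its window. Chromatin immunoprecipitation with sequencing was done in 92-1, an established cell line from a uveal melanoma. Cells were kept for 4 h in DMSO, the solvent, or in FHT-1015, a compound that blocks SMARCA4 (BRG1) and SMARCA2, the alternative ATPases of BAF nucleosome remodellers. Antibodies were against SMARCA4, the acetylated lysine 27 of histone H3 (H3K27ac) and 3 transcription factors (SOX10, MITF and TFAP2A), giving 10 libraries with peak lists, 1 for each antibody and condition. A DMSO input library completed the 11 samples.

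Heterotrimeric G proteins of the Gq and G11 class relay signals from receptors such as CYSLTR2 to phospholipase C beta, which makes diacylglycerol and inositol trisphosphate. Diacylglycerol recruits protein kinase C isoforms and the RAS exchange factor RASGRP3, which feed the RAS and MAP kinase cascade, while TRIO, ARF6 and focal adhesion kinase (PTK2) carry the signal towards RAC GTPases, vesicle traffic and adhesion. In uveal melanoma this pathway is commonly switched on by activating mutations in GNAQ, GNA11, CYSLTR2 or PLCB4. SOX10 and MITF direct the development of pigment cells, TFAP2A acts in neural crest cells and their descendants, and H3K27ac is found at promoters and enhancers in use.

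There were no replicates, so every difference below compares 2 libraries, has no test and carries no measure of the variation between cultures or precipitations. The read depth recovered from the lists was higher in FHT-1015 than in DMSO for SOX10 (a ratio of 1.15) and H3K27ac (1.05), and lower for TFAP2A (0.960), SMARCA4 (0.918) and MITF (0.854). The identifiers of both SOX10 libraries begin unlike each other and unlike the rest, for a reason that was not stated, so for SOX10 this difference and the treatment cannot be told apart. In DMSO, 7 of 7 pigment lineage genes had an H3K27ac peak within 1 kb of their start (or of either gene boundary where no start was given), against 0 of 8 marker genes of T cells, leukocytes, endothelium, hepatocytes and epithelium. The −log10 p of a peak is the authors' own value and ranks peaks within a list. The reads at a summit were recovered from the authors' fold and −log10 p and are given side by side, unscaled for depth.

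Of the 10 members, 7 had a promoter entry, and a SOX10, MITF or TFAP2A peak covered an annotated start of 5 of these in DMSO. The sequences of 4 are shown, those with the highest −log10 p of such a peak, and PRKCD, where a TFAP2A peak of 17 reads covered a start, is left out. They are RefSeq sequences of GRCh38.p14, plus strand, 5′ to 3′, from 250 bases before to 50 bases after the start. The RASGRP3 promoter (chr2:33476399-33476698) lay under peaks of all 5 antibodies in both conditions. The ARF6 promoter (chr14:49892832-49893131) had H3K27ac, MITF, TFAP2A and SOX10 peaks over its start in both. Over the PRKCE start (chr2:45651425-45651724) the TFAP2A peak of DMSO was missing in FHT-1015, where a TFAP2A peak began at 45651693, just downstream. Over the TRIO start (chr5:14143092-14143391) the SOX10 peak was present in DMSO and absent in FHT-1015, while H3K27ac and TFAP2A peaks covered it in both. Capitals mark motif matches.
RASGRP3: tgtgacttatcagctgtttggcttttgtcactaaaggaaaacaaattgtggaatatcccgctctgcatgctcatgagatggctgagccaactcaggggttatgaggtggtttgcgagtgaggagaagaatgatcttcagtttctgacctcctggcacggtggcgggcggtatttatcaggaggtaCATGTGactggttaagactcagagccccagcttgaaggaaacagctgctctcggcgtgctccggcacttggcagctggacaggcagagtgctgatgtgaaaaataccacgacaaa
ARF6: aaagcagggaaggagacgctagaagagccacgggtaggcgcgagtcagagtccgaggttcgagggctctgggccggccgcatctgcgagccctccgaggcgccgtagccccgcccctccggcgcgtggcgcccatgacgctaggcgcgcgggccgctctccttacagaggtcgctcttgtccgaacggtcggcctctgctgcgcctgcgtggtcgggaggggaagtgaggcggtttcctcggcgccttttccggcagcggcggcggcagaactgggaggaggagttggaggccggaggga
PRKCE: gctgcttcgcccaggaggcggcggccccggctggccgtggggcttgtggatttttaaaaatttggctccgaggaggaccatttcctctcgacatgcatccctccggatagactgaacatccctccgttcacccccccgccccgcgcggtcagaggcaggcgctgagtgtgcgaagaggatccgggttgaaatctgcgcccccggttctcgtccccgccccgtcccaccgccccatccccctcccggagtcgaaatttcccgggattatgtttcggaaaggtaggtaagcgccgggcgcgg
TRIO: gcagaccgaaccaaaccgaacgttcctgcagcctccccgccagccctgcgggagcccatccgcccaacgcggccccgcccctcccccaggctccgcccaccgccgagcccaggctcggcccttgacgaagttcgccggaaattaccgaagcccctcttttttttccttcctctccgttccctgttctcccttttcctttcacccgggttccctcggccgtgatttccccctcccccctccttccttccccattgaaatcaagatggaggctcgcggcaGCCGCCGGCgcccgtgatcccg
The letters searched on both strands were ACAANG for SOX factors, CATGTG and CACGTG for MITF, and GCCNNNGGC for AP-2. Among 35116 RefSeq promoters of 300 bases, 35.5% held ACAANG, 11.1% CATGTG, 7.26% CACGTG and 23.2% GCCNNNGGC. The RASGRP3 promoter held 1 CATGTG, at -65 from the start, and the TRIO promoter 1 GCCNNNGGC, at 28 bases past it, with no overlap with another motif. In the 300 bases shown for ARF6 and PRKCE none of these letters was found. The GC content was 50.3% for RASGRP3, 64.7% for PRKCE, 66.3% for TRIO and 70.3% for ARF6. 

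SOX10 peaks were fewer in FHT-1015 in the window of each of the 10 genes. In all, 224 DMSO peaks stood against 63 in the treated cells, and the covered length was 93.7 kb against 21.7 kb (a ratio of 0.231). The number ratio was 0.281, beside 0.322 for the whole list. For peaks with a −log10 p from 10 upwards it was 0.115, a minimum at which the whole list was not counted. By rank the whole SOX10 list was also shorter there in FHT-1015. A −log10 p of 11.2 ranked 36101 in DMSO, and one of 11.6 ranked 3713 in FHT-1015. Retained peaks are DMSO peaks that share at least 1 base with a peak of that antibody in FHT-1015, and the remaining DMSO peaks are called lost. Of the 224 SOX10 peaks, 34 were retained, 15.2% (95% Wilson interval 11.1 to 20.5). The recovered depth was higher in the FHT-1015 SOX10 library, and the part of depth was not tested. The pooled share was close to the 18.3% of all SOX10 peaks of the list. Fewer SOX10 peaks were also found at 91.6% of the coding genes with any peak, so both values were near the background. The median of the members' own shares, given below, lay further from that of coding genes.

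The other antibodies held more of their peaks. H3K27ac had 199 peaks in DMSO and 151 in FHT-1015, with 120 retained, 60.3% (53.4 to 66.8), against 59.3% over the list. It was lower in number at 9 of the 10 genes, RASGRP3 being the exception, and at 68.7% of the coding genes with a peak in either list. SMARCA4 had 254 and 202 peaks, with 126 retained, 49.6% (43.5 to 55.7), against 52.0% over the list, and was lower in number at 7 members (45.9% of coding genes). For MITF the 193 DMSO peaks stood against 155, with 79 retained, 40.9% (34.2 to 48.0), against 36.2% over the list, and 8 members had fewer (45.2% of coding genes). The MITF number ratio of the members, 0.803, lay under 1 while that of the whole list was 1.04. For peaks with a −log10 p from 10 upwards the member ratio was 0.389, and the whole list was not counted at that minimum. By rank the whole MITF list was also shorter there in FHT-1015. A −log10 p of 9.86 ranked 33160 in DMSO, and one of 9.69 ranked 13736 in FHT-1015. TFAP2A had 282 and 227 peaks, with 162 retained, 57.4% (51.6 to 63.1), against 54.9% over the list, and 6 members had fewer (49.0% of coding genes). Each whole-list share lay inside the interval of the members. The coding-gene backgrounds include genes with a single peak.

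**Figure D1:**
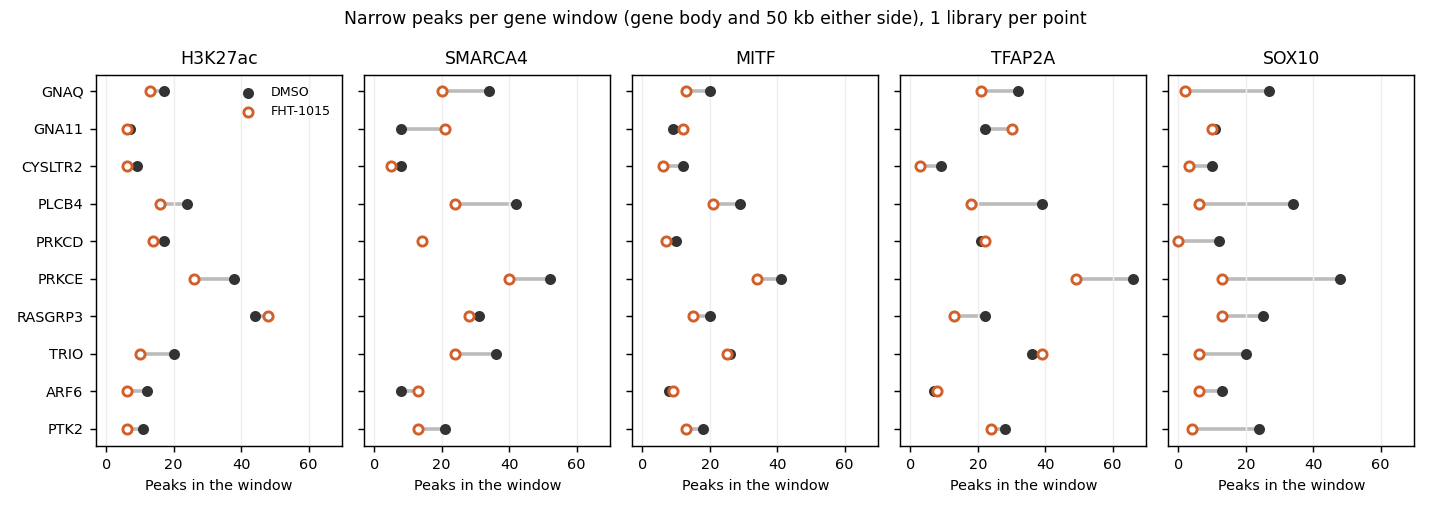
Narrow peaks in the window of each of the 10 genes (x axis, number of peaks) for the 5 antibodies, with 1 library per point: filled points are DMSO and open points FHT-1015. The SOX10 panel has the open point to the left of the filled one for 10 of 10 genes, from 48 to 13 peaks at PRKCE and from 12 to 0 at PRKCD.

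Covered length was also lower for every antibody. H3K27ac covered 203 kb of the windows in DMSO and 147 kb in FHT-1015 (a ratio of 0.725), with less length at all 10 genes, and TFAP2A 118 and 86.2 kb (0.730). MITF covered 73.8 and 49.2 kb (0.666), and SMARCA4 112 and 96.9 kb (0.863). Covered length is not given for the whole lists or for all coding genes, so these values have no background. New peaks also appeared: 80 SMARCA4, 77 MITF, 63 TFAP2A, 26 SOX10 and 21 H3K27ac peaks of the FHT-1015 lists had no DMSO peak under them. MITF thus held nearly as many new peaks as retained ones. New peaks were not counted over the whole lists, so these numbers have no background and describe the members only.

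Members differed among themselves in how much they kept. For SOX10 the retained share ran from 0% at PRKCD to 38.5% at ARF6. Its median was 10.9% over the 10 members and 21.4% over 14284 coding genes with at least 5 DMSO peaks. The SOX10 member median thus lay under the first quartile of those coding genes, 12.5%. Some of the members' shares rest on few SOX10 peaks, such as 10 at CYSLTR2 and 11 at GNA11. The position of peaks, described below, was not matched, and this difference was not tested. For H3K27ac the members ran from 47.1% (PRKCD) to 71.4% (GNA11), a median of 61.0% beside 64.7% over coding genes. The member medians of SMARCA4 (56.5% beside 60%), MITF (39.5% beside 44.4%) and TFAP2A (59.4% beside 66.7%) lay a few points under those of coding genes. Apart from SOX10, each member median lay between the quartiles of coding genes. CYSLTR2 had the lowest share for SMARCA4 (25%) and TFAP2A (22.2%), and PRKCD for MITF (20.0%). ARF6 had the highest for SMARCA4 and MITF, 75% each, and GNA11 for TFAP2A, 81.8%.

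**Figure D2:**
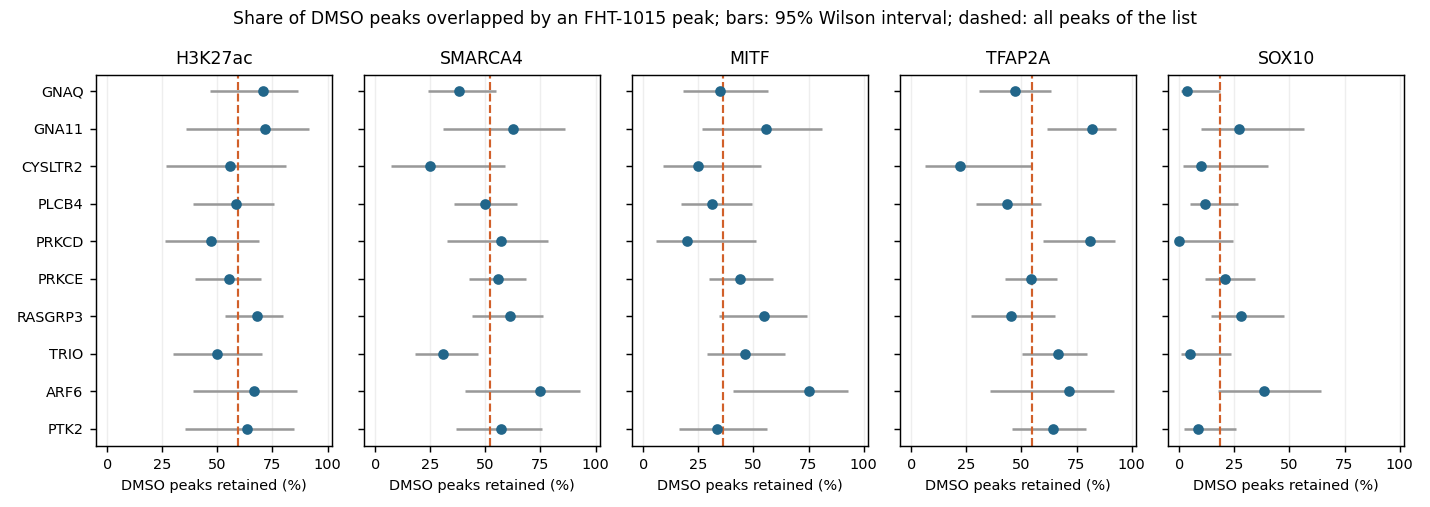
Share of the DMSO peaks of each gene window that an FHT-1015 peak overlapped (x axis, percent), with 95% Wilson intervals over peaks as bars and the share over the whole list as a dashed line. The SOX10 points lie between 0% and 38.5%, and most intervals of all panels cross the dashed line.

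CYSLTR2, the cysteinyl leukotriene receptor at the top of the pathway, lies at chr13:48653929-48711226. Its window held no other coding gene and no H3K27ac peak within 1 kb of its annotated start in either condition. Its strongest peak of each of the 5 antibodies was at 1 place inside the gene, about 26.4 kb from the start. There the SOX10 peak (chr13:48679911-48680765) had 111 reads at its summit in DMSO and 29 in FHT-1015. The MITF peak had 105 and 37 reads, the H3K27ac peak 143 and 91, and the SMARCA4 peak 41 and 33. The TFAP2A peak of 76 reads was lost. All 5 signals at this site were thus lower in FHT-1015, least so for SMARCA4. Over the window SOX10 went from 10 peaks to 3, MITF from 12 to 6, TFAP2A from 9 to 3 and H3K27ac from 9 to 6.

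GNAQ, which encodes the Gq alpha subunit, lies at chr9:77716097-78031811 with no other coding gene in its window. Its SOX10 peaks went from 27 to 2, with 1 retained (3.70%, 0.657 to 18.3), the largest relative drop in number beside PRKCD. Both FHT-1015 peaks were weak, with 15 and 16 reads, and lay near the upper gene boundary. The strongest SOX10 peak of DMSO (chr9:77725013-77725580, 85 reads, inside the gene) was lost. The site of the strongest MITF peak (chr9:77807150-77807702), also inside the gene, had 63 MITF reads in DMSO and 9 in FHT-1015. Its SOX10 peak of 33 reads and its SMARCA4 peak of 23 reads were lost.

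H3K27ac at GNAQ behaved differently at its 2 main sites. Inside the gene, the strongest DMSO peak (chr9:77825331-77828029) had 76 reads and 59 in FHT-1015. At the upper gene boundary the H3K27ac peak had 59 reads in DMSO and 110 in FHT-1015. The SMARCA4 peak chr9:78032386-78032836 had 15 and 38 reads, while the strongest SMARCA4 peak there in DMSO was another, of 35 reads (chr9:78030190-78031308). The TFAP2A peak chr9:78030246-78031361 had 30 and 62. The strand of GNAQ was not given in the tables used here, so this boundary is named by position only. The boundary thus had more H3K27ac and TFAP2A reads in FHT-1015, and 12 of 17 H3K27ac peaks of the window were retained.

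GNA11, the alpha subunit of G11, lies at chr19:3094362-3123999, and its window also holds TLE2, TLE5 and GNA15. It was the member with the smallest SOX10 difference in number, 11 peaks against 10, but only 3 of the 11 were retained and 6 of the 10 were new. Its strongest SOX10 peak had 23 reads in DMSO, the lowest among the 10 genes, and 11 in FHT-1015. SMARCA4 peaks went from 8 to 21, with 16 new ones, MITF peaks from 9 to 12 and TFAP2A peaks from 22 to 30. The strongest new SMARCA4 peak had 14 reads, so the added peaks were weak. The strongest DMSO peaks lay outside the gene: TFAP2A had 70 reads and 68 in FHT-1015 (chr19:3062648-3063510), H3K27ac at that place 42 and 49, SMARCA4 22 and 26 (chr19:3061226-3061826), and MITF 24 and 18 (chr19:3070495-3070890). Within 1 kb of the GNA11 start, the H3K27ac peak chr19:3093645-3094153 had 52 reads in DMSO and 83 in FHT-1015, and the SMARCA4 peak 17 and 28 reads, while the SOX10 peak of 20 reads was lost.

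PLCB4, a phospholipase C beta that hydrolyses membrane phosphoinositides, spans chr20:9068678-9480808, and its window also holds LAMP5. It carried some of the strongest factor peaks of the members. At chr20:9119387-9120468, inside the gene and 51.3 kb from its lower boundary, MITF had 217 reads in DMSO and 97 in FHT-1015. TFAP2A had 266 and 134 reads there, SOX10 110 and 42, and SMARCA4 75 and 48. H3K27ac at this site was 94 and 97 reads, so the acetylation peak stayed while the 4 bound proteins had fewer reads.

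Other PLCB4 sites went further. The strongest SOX10 peak (chr20:9290212-9291031) had 154 reads in DMSO and 68 in FHT-1015, and the SOX10 peak at chr20:9186087-9186847, with 110 reads, was lost. At the strongest H3K27ac peak (chr20:9125302-9131976) the summit had 157 and 103 reads, the DMSO peak was 6.67 kb wide where the stronger of 2 FHT-1015 peaks was 1.85 kb wide, and the TFAP2A (84 reads) and SOX10 (51 reads) peaks within it were lost. Neither gene boundary of PLCB4 had an H3K27ac peak within 1 kb, but the lower one had SMARCA4 (25 and 36 reads) and TFAP2A (83 and 70 reads). In number, SOX10 went from 34 to 6, TFAP2A from 39 to 18, SMARCA4 from 42 to 24, MITF from 29 to 21 and H3K27ac from 24 to 16.

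PRKCD, the delta isoform of protein kinase C, lies at chr3:53161209-53192717, and its window also reaches into TKT. All 12 of its SOX10 peaks were lost and no new one was found, which for 12 peaks allows a retained share of up to 24.2% by the Wilson interval. H3K27ac length went from 19.1 kb to 7.73 kb, the smallest length ratio for H3K27ac among the members (0.405). One peak went the other way: at chr3:53129508-53131497, outside the gene, H3K27ac had 69 reads in DMSO and 127 in FHT-1015. The main acetylated stretch inside the gene (chr3:53166281-53172144, 5.86 kb) had 101 reads at its summit in DMSO, and in FHT-1015 only shorter peaks were left, the strongest with 29 reads. Within it the MITF peak chr3:53167764-53168398, with 111 reads, was lost. At that site the SOX10 peak of 38 reads was lost too, TFAP2A had 121 reads in DMSO and 12 in FHT-1015, and SMARCA4 had 26 and 15.

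The second large PRKCD-window site lay outside the gene, inside TKT, which encodes a transketolase of the pentose phosphate pathway. At chr3:53237775-53239175 TFAP2A had 245 reads in DMSO and 30 in FHT-1015, MITF 91 and 14, SMARCA4 52 and 16, and H3K27ac 78 and 27. The SOX10 peak of 73 reads was lost. All 5 signals were lower here, as in the acetylated stretch inside PRKCD. PRKCD has 3 annotated starts, and the last lies in the stretch described above. Near the first pair SMARCA4 had 22 reads in DMSO and 34 in FHT-1015 and H3K27ac 32 and 23, and the TFAP2A peak of 17 reads and the SOX10 peak of 13 reads were lost. SMARCA4 alone had more reads there in FHT-1015.

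PRKCE, the epsilon isoform of protein kinase C and the longest member, lies at chr2:45651279-46187990, and its window reaches into SRBD1. SOX10 peaks were most numerous here, going from 48 to 13, with 10 retained (20.8%, 11.7 to 34.3). The strongest SOX10 peak (chr2:45782145-45783625) had 145 reads in DMSO and 54 in FHT-1015, TFAP2A there 124 and 49, MITF 110 and 60, and SMARCA4 52 and 38. H3K27ac at this site had 148 and 141 reads. The factors thus had fewer reads over a peak of nearly equal acetylation.

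Sites within PRKCE went in opposite directions. At chr2:45689575-45690268 the H3K27ac peak (81 reads), the MITF peak (80 reads) and the SMARCA4 peak (35 reads) were all lost, and the SOX10 and TFAP2A peaks of DMSO there had no FHT-1015 peak either. At chr2:45928560-45929400, the strongest SOX10 peak of the window in FHT-1015, SOX10 had 74 reads in DMSO and 81 in FHT-1015, MITF 105 and 125, and TFAP2A 79 and 107. The FHT-1015 library was the deeper one for SOX10 and the shallower one for MITF and TFAP2A. Near the start, H3K27ac had 104 and 121 reads, SMARCA4 37 and 57, and SOX10 69 and 26.

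RASGRP3, the exchange factor that loads RAS with GTP downstream of diacylglycerol, lies at chr2:33436348-33564731, and its window also holds LTBP1 and FAM98A. It was the most densely acetylated member, with 19.3 H3K27ac peaks per 100 kb in DMSO and 21 in FHT-1015. It was also the only member with more H3K27ac peaks in FHT-1015, 48 against 44, at an almost equal length of 47.8 kb against 48.2 kb. Of the 44 peaks, 30 were retained (68.2%, 53.4 to 80.0) and 14 were lost, while 15 of the 48 were new. The next densest window, PRKCD, had 12.9 and 10.6 H3K27ac peaks per 100 kb.

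The strongest RASGRP3 site lies inside the gene, 8.76 kb past its first start (chr2:33444494-33445486). SOX10 had 200 reads there in DMSO and 141 in FHT-1015, the highest of the members in both. MITF had 275 and 252 reads, TFAP2A 199 and 181, and SMARCA4 78 and 80. H3K27ac had 236 and 280 reads, and its peak ran over 7.84 kb in DMSO and 13.4 kb in FHT-1015. In DMSO a separate H3K27ac peak (chr2:33435382-33440570, 128 reads) ended just before it and covered the first start, so the wider peak spans what were 2 neighbouring peaks. Apart from SOX10, the reads at this site thus differed little between conditions.

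Over the whole RASGRP3 window, this site included, 25 SOX10 peaks stood against 13, with 7 retained (28.0%, 14.3 to 47.6). Among the members only ARF6 had a higher SOX10 share (38.5%). The strongest lost one (chr2:33498015-33498839) had 78 reads and kept H3K27ac, SMARCA4 and MITF peaks in FHT-1015. RASGRP3 has 4 annotated starts. At the first start the SOX10 peak (31 reads) was lost, and at the second likewise (15 reads). At the third start, the promoter shown above, SOX10 had 64 and 49 reads, MITF 116 and 57, and H3K27ac 203 and 230. Near the fourth no peak was found in DMSO, and weak H3K27ac (10 reads) and SMARCA4 (7 reads) peaks in FHT-1015. In number over the window, TFAP2A went from 22 to 13, MITF from 20 to 15 and SMARCA4 from 31 to 28.

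**Figure D3:**
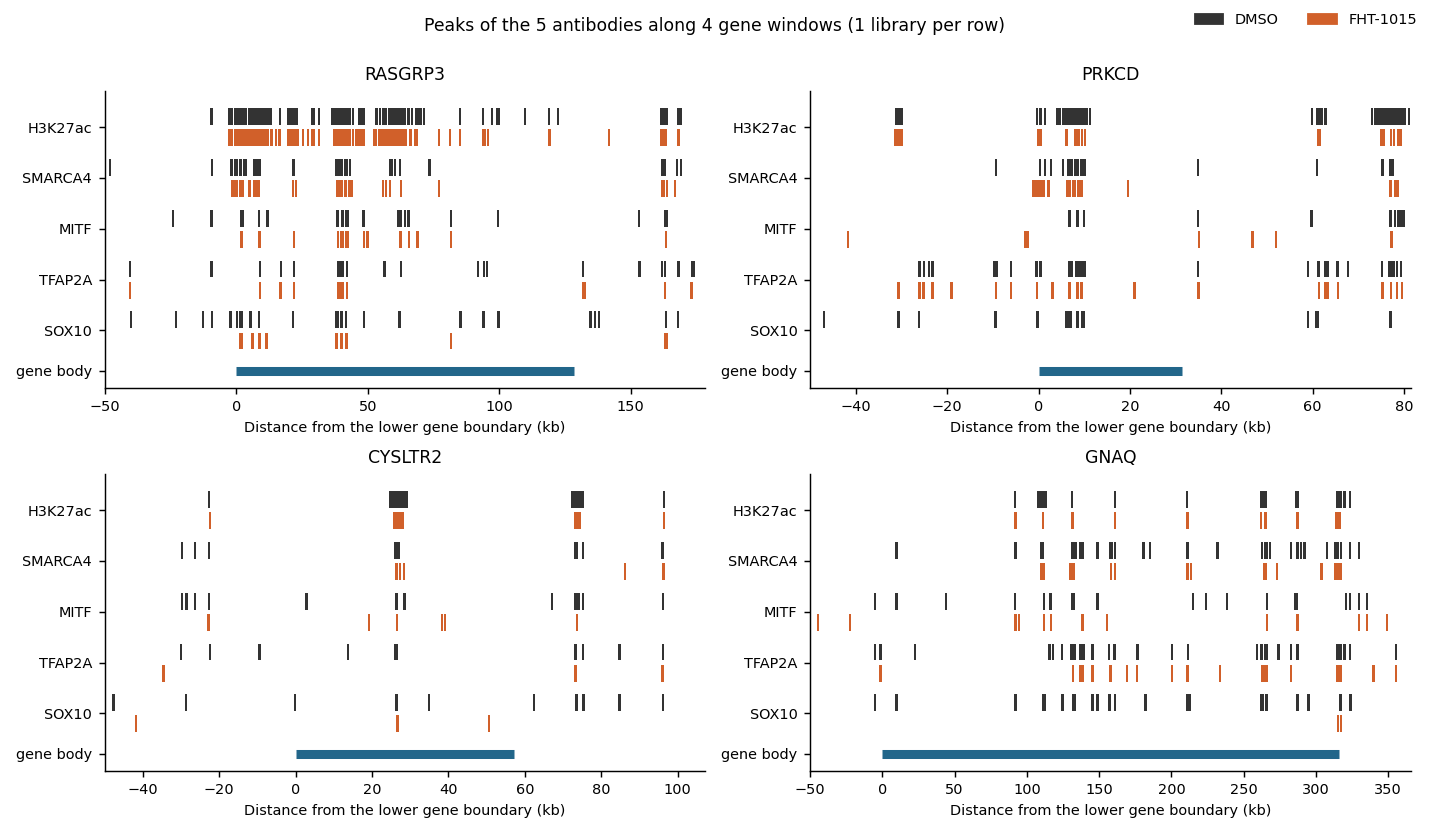
Positions of the peaks of the 5 antibodies (rows, DMSO dark and FHT-1015 orange) along the windows of RASGRP3, PRKCD, CYSLTR2 and GNAQ, as distance from the lower gene boundary in kb, with the gene body in blue. The orange SOX10 row is empty at PRKCD, holds 2 peaks at GNAQ and 3 at CYSLTR2, and holds 13 at RASGRP3. At RASGRP3, 30 of the 44 H3K27ac peaks of DMSO were retained.

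TRIO, an exchange factor for RAC GTPases, lies at chr5:14143342-14510204 with no other coding gene in its window. Its SOX10 peaks went from 20 to 6, with 1 retained (5.00%, 0.888 to 23.6). About 6.95 kb before the start, at chr5:14136049-14136694, the SOX10 peak (70 reads), the H3K27ac peak (57 reads) and the SMARCA4 peak (25 reads) were lost, and TFAP2A had 130 reads in DMSO and 23 in FHT-1015. At the strongest H3K27ac peak (chr5:14312589-14315323), inside the gene, H3K27ac had 94 and 20 reads and MITF 112 and 27. Another site inside the gene, chr5:14264203-14265299, went the other way for H3K27ac, with 25 reads in DMSO and 90 in FHT-1015, while MITF had 37 and 35. Near the start, H3K27ac had 48 and 71 reads and SMARCA4 30 and 45, whereas the SOX10 peak of 28 reads was lost.

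ARF6, a small GTPase of endosomal traffic and the shortest member, lies at chr14:49893082-49897054, and its window also holds NEMF. It kept the largest share of its SOX10 peaks, 5 of 13 (38.5%, 17.7 to 64.5), and 6 were found in FHT-1015. At its start, H3K27ac had 190 reads in DMSO and 251 in FHT-1015, MITF 41 and 55, and TFAP2A 39 and 48, while SOX10 had 57 and 30. SMARCA4 had 28 and 44 reads within 1 kb of the start (chr14:49893124-49894408), and its peaks in the window numbered 8 and 13. Among these peaks at the ARF6 start or within 1 kb of it, SOX10 was thus the only antibody of the 5 with fewer reads in FHT-1015. H3K27ac peaks in the window went from 12 to 6, with 8 of the 12 retained, and covered 12.5 kb and 11.6 kb. In NEMF, the strongest TFAP2A peak of the window (chr14:49852344-49853453) had 74 and 93 reads and the strongest SMARCA4 peak (chr14:49851440-49852076) 19 and 11. The strongest lost SOX10 peak (chr14:49868255-49868798) had 44 reads.

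PTK2, which encodes focal adhesion kinase, lies at chr8:140657900-141002079, and its window also holds AGO2 and LOC107986982. SOX10 peaks went from 24 to 4, with 2 retained (8.33%, 2.32 to 25.8). At chr8:140718322-140719019, inside the gene, the SOX10 peak (88 reads) and the H3K27ac peak (84 reads) were lost, and TFAP2A had 236 reads in DMSO and 24 in FHT-1015. SMARCA4 had 57 and 27 reads there. The strongest MITF peak (chr8:140898079-140898665), also inside the gene, had 57 and 28 reads. At the upper gene boundary H3K27ac had 134 and 172 reads, SMARCA4 59 and 71, TFAP2A 88 and 85, and SOX10 35 and 23. The site inside the gene thus lost most of its signal. At the boundary H3K27ac and SMARCA4 had more reads in FHT-1015, TFAP2A was nearly equal and SOX10 had fewer. The DMSO SMARCA4 peak there (chr8:141000155-141001216) also overlapped SOX10 peaks in DMSO, the stronger with 43 reads, and none in FHT-1015.

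**Figure D4:**
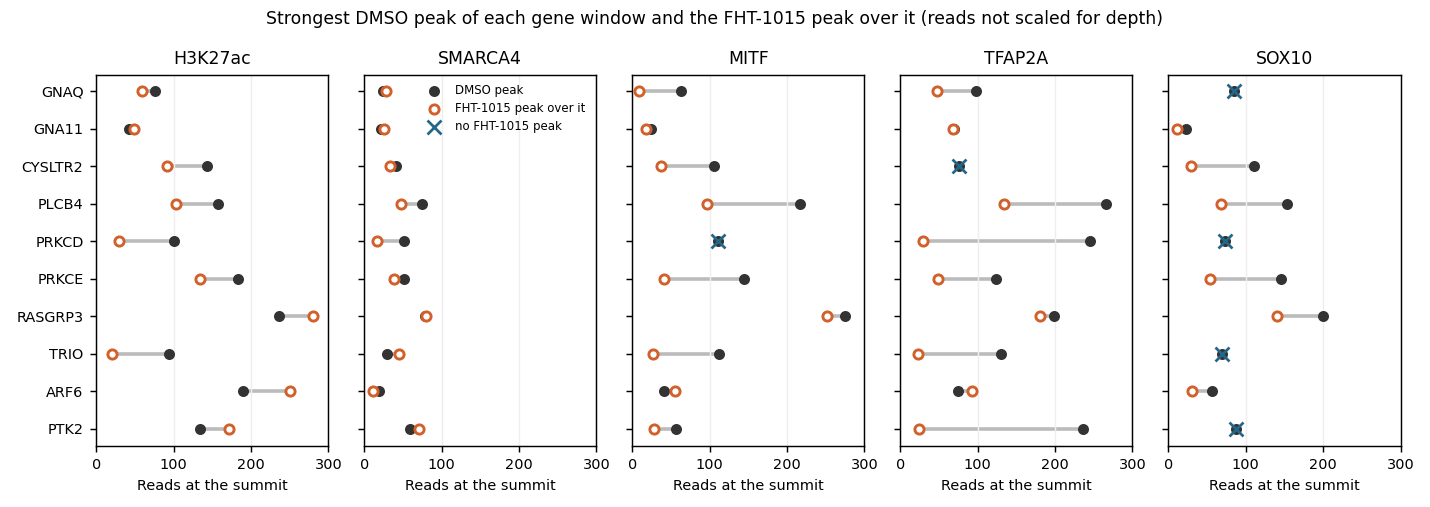
Reads at the summit (x axis, not scaled for depth) of the strongest DMSO peak of each gene window and of the FHT-1015 peak over it, for the 5 antibodies. Crosses mark DMSO peaks with no FHT-1015 peak over them, which are 4 of 10 for SOX10 (GNAQ, PRKCD, TRIO and PTK2), 1 for MITF (PRKCD), 1 for TFAP2A (CYSLTR2) and 0 for H3K27ac and SMARCA4.

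Taking the strongest DMSO peak of each member, 6 of 10 SOX10 peaks were overlapped in FHT-1015 and all 6 had fewer reads. The median over members was 86.5 reads in DMSO (23 to 200). For MITF, 9 of 10 were overlapped, 8 with fewer reads and 1 with more (ARF6), and for TFAP2A likewise 9, 8 and 1 (ARF6). H3K27ac and SMARCA4 kept a peak over all 10, with fewer reads at 6 and more at 4 for H3K27ac, and with 5 and 5 for SMARCA4. Strong factor peaks of these genes were therefore mostly weaker, while strong acetylation and SMARCA4 peaks were higher or lower by gene. Each DMSO peak here was chosen as the strongest of its window, a choice that by itself favours a lower value in the other library. The strongest peaks of other coding genes were not counted, so these counts have no background.

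Peaks at gene starts were counted by member. Within 1 kb of an annotated start, or of either boundary for GNAQ, PLCB4 and PTK2, H3K27ac peaks were found at 8 members in DMSO and the same 8 in FHT-1015, all but CYSLTR2 and PLCB4. SMARCA4 and TFAP2A were found at the same 9 members in both conditions, all but CYSLTR2. MITF was found at 5 and 4 members, PRKCD being the one without it in FHT-1015. SOX10 was found at 9 members in DMSO and 5 in FHT-1015, and was absent in FHT-1015 at GNA11, CYSLTR2, PRKCD and TRIO. Starts of all coding genes were not counted in this way, so these counts have no background and describe the members only.

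The peaks of the 10 windows were also pooled by position. Where a SOX10 peak lay near (within 1 kb of) any coding gene's boundary, 10 of 26 were retained (38.5%, 22.4 to 57.5), against 24 of 198 farther away (12.1%, 8.28 to 17.4). The whole list gave 42.4% and 13.2%. H3K27ac at the members retained 90.5% near boundaries and 56.7% farther away (list 89.5% and 50.5%), and SMARCA4 92.0% and 45.0% (list 85.0% and 44.8%). TFAP2A retained 88.5% and 54.3% (list 85.8% and 49.8%), and MITF 75% and 38.7% (list 66.1% and 32.0%). The members thus followed the lists. Stronger peaks were also kept more often: by terciles of the −log10 p of the DMSO list, SOX10 peaks of the members retained 5.33%, 13.9% and 26%, beside 6.72%, 12.8% and 35.4% over the list. For H3K27ac the members gave 36.1%, 57.6% and 91.8%, beside 26.7%, 56.3% and 95% over the list. H3K27ac peaks near boundaries were also stronger (median −log10 p of 35.0, against 7.37 farther away), and the parts of position and strength were not separated.

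Acetylation was then read at the SOX10 peaks. Of the 190 lost SOX10 peaks, 101 lay under an H3K27ac peak in DMSO, and 79 of those 101 (78.2%) still had one in FHT-1015, beside 70.4% over the list. Of the 34 retained SOX10 peaks, 27 had H3K27ac in DMSO, and 26 of those 27 (96.3%) still had it, beside 98.2% over the list. Acetylation was therefore missing more often at lost than at retained SOX10 peaks, at the members and over the list. Sites with SOX10, MITF and TFAP2A peaks together in DMSO numbered 78 over the 10 windows, 25 of them at PRKCE and 12 at PLCB4. In FHT-1015, 21 of the 78 still had SOX10, 40 had MITF, 51 had TFAP2A, 55 had SMARCA4 (72 in DMSO) and 57 had H3K27ac (68 in DMSO). SOX10 was thus missing most often, then MITF, then TFAP2A, which is also the order of their retained shares over the whole lists. None of the triple sites at GNAQ (6), PRKCD (4) and GNA11 (3) kept SOX10.

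A list of 22 other genes of the pathway, among them further G alpha subunits, phospholipases, kinases, inositol trisphosphate receptors and GTPases, was counted in the same way. Fewer SOX10 peaks were found in FHT-1015 at 20 of the 22 and more at 2, where 91.6% of coding genes had fewer. H3K27ac peaks were fewer at 15 and more at 2 (68.7% of coding genes), and SMARCA4 peaks fewer at 12 and more at 9 (45.9%). MITF was fewer at 11 and more at 9 (45.2%), and TFAP2A fewer at 10 and more at 8 (49.0%). The median retained share of SOX10 was 16.7% over the 21 of them with at least 5 peaks. GNA15 lies in the GNA11 window, so these share peaks. PRKCA, the alpha isoform of protein kinase C, went from 31 SOX10 peaks to 6 with 2 retained, and PLCB1, a phospholipase C beta, from 27 to 6 with 5 retained. PLCB3, another phospholipase C beta, kept more, with 27 and 24 SOX10 peaks and 12 retained. GNA14, a Gq class alpha subunit, went from 5 to 1, and IQSEC1, an exchange factor for ARF6, from 11 to 4.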

How the data were processed

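Peak lists of 10 libraries on hg38 were used: 10 narrow lists and, as an alternative, 4 broad lists (H3K27ac and SMARCA4). The submitters' processing notes name BWA, SAMtools, Picard and MACS2. Their roles, versions and settings, and the control used, are not given in the sources used here. Per the values, the authors' deposited score is 10 times the −log10 p (narrow) or −log10 q (broad) without its decimals, and was not used. The fold of each peak, a ratio over background deposited by the authors, and the −log10 p and −log10 q deposited by the authors were used within a list only. The deposited distance from peak start to summit placed each summit. Weak peaks are included: every list reaches down to a −log10 p of about 2. Samples were grouped by title. The target written AP-2 there is called TFAP2A after the antibody label.

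Peaks sharing at least 1 base with a gene body and 50 kb on either side (RefSeq, GRCh38.p14) were counted. The members and gene lists were chosen with earlier results of these data known. All 10 members are described from their counts, their peaks near starts and their strongest and strongest lost peaks. Which of these peaks are given in the text was chosen with their values known, and 5 of 22 further pathway genes are given by name. Summit reads x were solved from fold = (x + 1)/(λ + 1) and a Poisson tail for p. At least 99.67% came out whole within 0.002, in the SOX10 FHT-1015 list after division by a scale of 0.890. This form was inferred from the values. Relative depth was estimated from the lowest background λ that several peaks of a list shared. It was divided by the narrowest peak width and, for that SOX10 list, by its scale. The DMSO libraries had a median of 14 to 21 reads per summit and the FHT-1015 libraries 8 to 26. The counting was tested on simulated peaks. Wilson intervals (95%) cover counting error over peaks only. Exons and peak sequences were not analysed here. Python 3.11.15, pandas 2.3.3, numpy 2.4.6, scipy 1.17.1 and matplotlib 3.10.9 were used. Alternatives changed the window, the −log10 p minimum, the overlap, the list type and the weighting of genes.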

Additional observations from a re-analysis of the deposited data

How the results depend on the processing

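Over the 5 antibodies, 3 summaries of the 10 windows (ratio of peak number, retained share, ratio of covered length) were recomputed, and 42 of 54 alternative values stayed inside the Wilson interval of the share or, for a ratio, within 1.5 times the value reported. None changed direction. When peaks under a −log10 p of 10 were left out of both lists, the SOX10 number ratio was 0.115, its retained share 10.3% and its length ratio 0.110, the MITF values were 0.389, 31.9% and 0.409, and the retained shares of TFAP2A and H3K27ac were 42.4% and 69.0%. Requiring 50% of the DMSO peak to be covered gave retained shares of 50.2% for H3K27ac, 42.9% for SMARCA4, 30.6% for MITF and 51.1% for TFAP2A. The cause was not tested, beyond the stricter rule removing peaks or overlaps. Whole lists were not recounted under these rules, so these values have no background. Gene bodies alone, 100 kb on either side, broad lists and equal weight for each gene moved none of the values that far. No paired analysis was possible because there was 1 library per antibody and condition, and no library could be left out. Weak peaks and the low MITF reads in FHT-1015 (a median of 8 per summit) limit what a lost or new peak means.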
